A study of Mus musculus with 3 samples.

Results

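Glucose uptake and glycolysis were described through 34 genes, found by their symbols among the 29994 gene symbols of the count matrices of mouse ventricles, across cell classes and 3 libraries. The 34 genes comprise glucose carriers (Slc2a1, Slc2a3, Slc2a4), the enzymes that turn glucose into pyruvate and lactate, the regulatory enzymes of fructose 2,6-bisphosphate (Pfkfb1 to Pfkfb4), monocarboxylate carriers (Slc16a1, Slc16a3), and genes of the pyruvate dehydrogenase complex and its kinases (Pdha1, Pdhb, Dlat, Pdk1, Pdk2). Each library was made from the pooled ventricles of 3 C57B6 mice with the 10x Genomics droplet method, from tissue kept frozen. The Sham library came from vehicle-treated animals without pressure overload, the TAC library from vehicle-treated animals with the aortic arch surgically narrowed (transverse aortic constriction), which loads the left ventricle, and the TAC+ART library from TAC animals given artesunate, an antimalarial drug. All animals were C57B6, and the labels used here give no age, sex, time after surgery or dose, nor say whether cells or nuclei were captured.

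Glycolysis splits glucose into pyruvate, with hexokinase and phosphofructokinase as its controlled early steps and with ATP made by phosphoglycerate kinase and pyruvate kinase at the end. Pyruvate is then reduced to lactate by lactate dehydrogenase or enters mitochondria, where pyruvate dehydrogenase feeds it to the citric acid cycle and PDH kinases switch that enzyme off. The adult heart burns mostly fatty acids and takes up glucose through the insulin-responsive carrier GLUT4 (Slc2a4). It uses muscle isoforms of several steps (Pfkm, Pgam2, Eno3) and the heart subunit of lactate dehydrogenase (Ldhb), and pressure overload is known for a shift towards glucose use.

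With 1 library per group there was no replicate and no test, and every difference below is one between libraries. Unique molecular identifiers (UMIs, 1 per captured RNA molecule) were summed over the cells of a class and expressed per 1000000 UMIs of the class (CPM). Where 3 values stand together they are those of Sham, TAC and TAC+ART in that order, and a ratio with no other label is TAC over Sham. Log2 ratios carry 95% intervals, written after each ratio, that cover counting error alone. A gene was measured in a class when it had at least 100 UMIs over the 3 libraries there, and a ratio of 1.5-fold or more (0.585 on the log2 scale) was counted as past the fold. The libraries held 3752 barcodes (Sham), 7413 (TAC) and 6856 (TAC+ART), with medians of 4310 to 4811 UMIs, and pairs of libraries shared 20 to 27 barcodes. Cells were placed in classes by marker genes; the 5 classes described most are fibroblasts (1007, 1360 and 1443 cells in Sham, TAC and TAC+ART), cardiomyocytes (313, 292 and 406), endothelial cells (1050, 1979 and 1908), macrophages (320, 1388 and 1008) and pericytes (375, 365 and 459). The members made up 0.159%, 0.202% and 0.174% of all UMIs.

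The cardiomyocyte class held droplets of 2 kinds, and their mix differed between libraries. Droplets with under 1.5% mitochondrial UMIs (mt-poor) had medians of 7791 to 8105 UMIs and were rich in the nuclear RNA Malat1, which took 12.5% to 14.3% of their UMIs. Droplets with 1.5% or more (mt-rich) had medians of 2856 to 2942 UMIs, of which Malat1 took 2.42% to 4.12%. The mt-rich share of the cardiomyocyte class was 27.5%, 69.2% and 42.6%. When all cells were clustered, 93.0%, 72.3% and 84.7% of the class lay in clusters led by cardiomyocyte markers, and 1 cluster that markers did not name held 116 droplets of the class beside 145 fibroblasts. With classes from clusters the members' median TAC over Sham ratio in cardiomyocytes was 0.63, where the gate gave 0.59. The members took 0.292%, 0.266% and 0.259% of mt-poor UMIs in Sham, TAC and TAC+ART, against 0.65%, 0.879% and 0.752% of mt-rich UMIs. A cardiomyocyte ratio over the whole class therefore mixes the gene's level within each kind with the kinds' shares. For many members it is given below with values within a kind. Where a cardiomyocyte ratio or count stands without such values, the part of the kinds' shares in it was not tested.

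The promoter windows of 6 members that carry the results are printed here, 5 of them because they are 5 of the 6 past the fold upward in all 5 classes in TAC over Sham (Pfkp, Gapdh, Pgam1, Pgam2, Ldha), and Hk2 because it differed in direction between classes. Each is the 250 bases before a RefSeq transcription start in GRCm38.p6, read 5′ to 3′ in the direction of the gene, and capitals mark the letters ACGTG, the core of the hypoxia response element, or its reverse complement CACGT, also where they lie in the E-box CACGTG. Pfkp, the platelet-type phosphofructokinase, lies at chr13:6648772-6649021 on the minus strand. The Gapdh window, of glyceraldehyde-3-phosphate dehydrogenase, is chr6:125165774-125166023 (minus), that of Pgam1, the broadly used phosphoglycerate mutase, is chr19:41911621-41911870 (plus), and that of Pgam2, the muscle mutase, is chr11:5803797-5804046 (minus). The Ldha window, of the A subunit of lactate dehydrogenase, is chr7:46845554-46845803 (plus), and that of Hk2, hexokinase 2, is chr6:82774455-82774704 (minus). Ldha has 2 windows, and the window printed was chosen because it held more ACGTG matches.
Pfkp: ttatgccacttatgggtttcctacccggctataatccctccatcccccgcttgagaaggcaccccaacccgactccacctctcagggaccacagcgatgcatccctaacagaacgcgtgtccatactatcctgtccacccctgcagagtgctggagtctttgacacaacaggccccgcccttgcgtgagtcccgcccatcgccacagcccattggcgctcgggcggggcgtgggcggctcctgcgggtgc
Gapdh: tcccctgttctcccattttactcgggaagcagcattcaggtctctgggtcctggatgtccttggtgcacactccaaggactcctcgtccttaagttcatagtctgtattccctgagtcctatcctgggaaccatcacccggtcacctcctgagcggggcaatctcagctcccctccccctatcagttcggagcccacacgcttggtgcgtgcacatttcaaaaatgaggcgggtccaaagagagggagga
Pgam1: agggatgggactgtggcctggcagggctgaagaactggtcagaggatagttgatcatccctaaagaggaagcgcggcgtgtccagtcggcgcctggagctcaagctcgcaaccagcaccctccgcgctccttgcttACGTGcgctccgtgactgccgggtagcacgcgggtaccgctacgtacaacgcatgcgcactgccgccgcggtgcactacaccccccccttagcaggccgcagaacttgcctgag
Pgam2: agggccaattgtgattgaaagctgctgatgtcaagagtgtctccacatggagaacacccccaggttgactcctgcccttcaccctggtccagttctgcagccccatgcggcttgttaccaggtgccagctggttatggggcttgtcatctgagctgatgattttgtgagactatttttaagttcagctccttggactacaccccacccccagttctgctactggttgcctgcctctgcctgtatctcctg
Ldha: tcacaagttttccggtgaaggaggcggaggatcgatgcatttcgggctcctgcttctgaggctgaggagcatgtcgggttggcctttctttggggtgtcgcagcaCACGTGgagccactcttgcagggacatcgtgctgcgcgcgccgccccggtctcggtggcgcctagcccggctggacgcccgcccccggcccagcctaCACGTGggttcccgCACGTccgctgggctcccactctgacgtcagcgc
Hk2: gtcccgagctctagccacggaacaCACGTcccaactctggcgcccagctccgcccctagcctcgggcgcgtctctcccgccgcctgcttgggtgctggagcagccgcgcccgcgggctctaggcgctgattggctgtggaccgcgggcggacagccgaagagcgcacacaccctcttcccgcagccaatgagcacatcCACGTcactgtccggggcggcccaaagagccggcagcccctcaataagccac

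Searched on both strands, ACGTG occurred in the windows of Pgam1 (1 match), Hk2 (2) and Ldha (5, of which 4 lie pairwise in 2 copies of the palindrome CACGTG), and no match was in those of Pfkp, Gapdh and Pgam2. The 5 matches of Ldha are the higher count of its 2 windows, since the window was chosen by this motif. RefSeq windows were matched for 32 of the 34 members by symbol, not for Slc2a3 and Slc2a4. Of the members' 51 windows, 19 (37.3%) held ACGTG, against 5444 (16.6%) of the 32851 windows of all genes. CACGTG was in 6 member windows (11.8%, against 6.02% of all), the GC box GGGCGG in 24 (47.1%, against 32.7%) and the TATA box letters TATAAA in 1 (1.96%, against 12.4%). These matches describe letters in a window; several windows belong to 1 gene, and binding of a factor was not measured.

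In TAC over Sham, of the 22 members measured in all 5 classes, 6 were past the fold upward in each (Pfkp, Aldoa, Gapdh, Pgam1, Pgam2, Ldha) and 0 were past it downward in each. Another view of the same 22 is that 14 had a higher level in TAC in all 5 classes and 2 (Slc2a4 and Pfkm) a lower one in all 5. The shares of all genes that met these conditions in all 5 classes were not counted. The classes of a library also share its free RNA, described below, so they are not independent. Aldoc, the brain-type aldolase, and Slc16a3, the lactate exporter MCT4, were measured in none.

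By class, 11 of the 30 members measured in fibroblasts were past the fold upward, where 17.2% of all measured genes were, and 5 downward (12.8% of all genes). The fibroblast members' median log2 ratio was 0.19, beside 0.02 for all measured genes. In endothelial cells 8 of 31 were past it upward (10.6% of all genes) and 5 downward (9.14%), with a median of 0.24 beside -0.05. In macrophages 9 of 31 were past it upward (11.7%) and 5 downward (11.3%), with a median of 0.11 beside -0.02. Pericytes had 8 of 25 upward (11.0%) and 1 downward (7.70%), with a median of 0.26 beside -0.02. The upward shares of the members were above those of all genes in each of these 4 classes. Downward, 5 members stood in fibroblasts, endothelial cells and macrophages alike, and 1 in pericytes.

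Cardiomyocytes as a whole had 13 of 26 members past the fold upward (25.1% of all genes) and 3 downward (19.1%), with a median of 0.59 beside -0.03. Within the mt-poor droplets 4 of 24 were past it upward, near the 13.1% of all genes, and 4 downward (13.3% of all genes), with a median of 0.20. Within the mt-rich droplets 5 of 21 were past it upward, near the 20.2% of all genes, and 3 downward (20.6%), with a median of 0.17. Gapdh, Aldoa and Pgam2 were past the fold upward in both kinds, and Slc2a4 and Hk2 were past it downward in both.

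**Figure D1:**
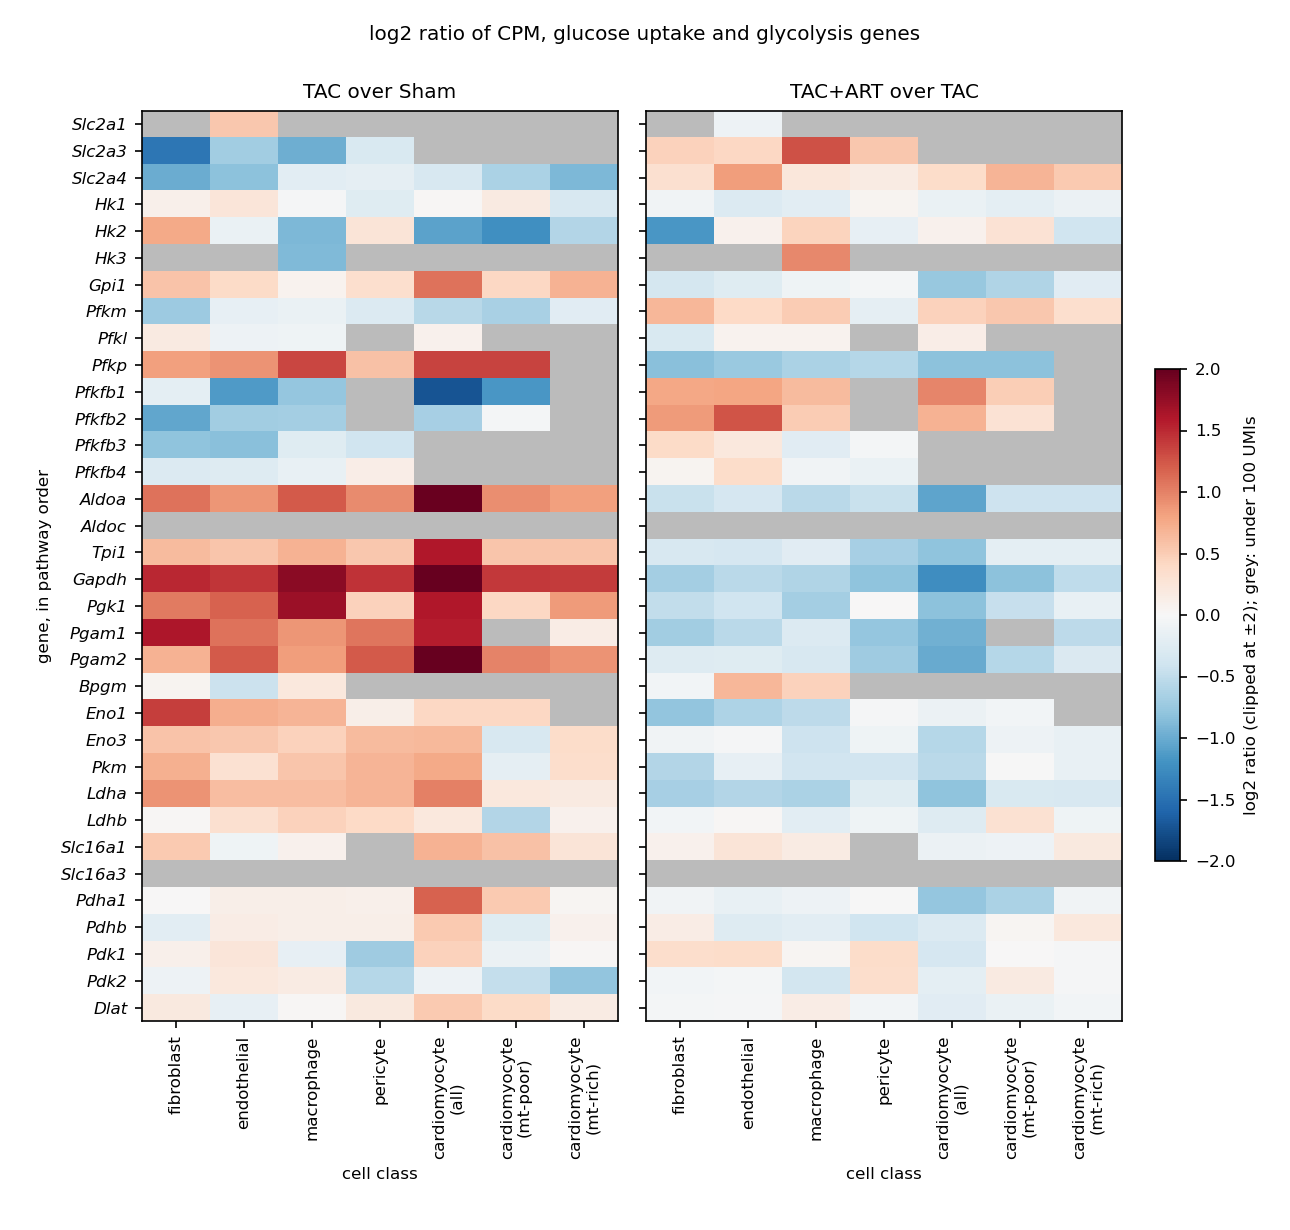
Log2 ratios of CPM for the 34 genes in pathway order (rows) by cell class (columns), TAC over Sham on the left and TAC+ART over TAC on the right; red is higher in the first library named, blue lower, grey under 100 UMIs. The block from Aldoa to Ldha is mostly red on the left and mostly blue on the right, and both panels use the same TAC library.

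Among the glucose carriers, Slc2a4 (GLUT4) and Slc2a3 (GLUT3, a high-affinity carrier) were lower in TAC. Fibroblasts had 28.1, 14.1 and 17.7 CPM of Slc2a4, a log2 ratio of -0.99 (-1.36 to -0.62). In endothelial cells its levels were 29.8, 16.8 and 30.1 CPM, with a ratio of -0.83 (-1.19 to -0.46), and TAC+ART was above TAC by 0.84 (0.53 to 1.15). The TAC library was thus the lowest of the 3 in both classes, and TAC+ART reached the Sham level in endothelial cells. As a fraction of its level in mt-rich cardiomyocytes, Slc2a4 stood at 12.3% and 11.6% in fibroblasts of Sham and TAC. In endothelial cells of these libraries it stood at 13.1% and 13.8%. The highest cardiomyocyte markers stood at 9.65% and 11.8% in fibroblasts and at 13% and 14.5% in endothelial cells. The part of free cardiomyocyte RNA in these Slc2a4 ratios was not tested.

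Cardiomyocytes, where GLUT4 is the main insulin-responsive carrier, had 112, 90.3 and 117 CPM of Slc2a4. In mt-poor droplets the levels were 92.6, 59.4 and 96.1 CPM (TAC over Sham -0.63, -1.17 to -0.14), and in mt-rich droplets 228, 122 and 176 CPM (-0.91, -1.38 to -0.42). Slc2a4 was lower in TAC within both kinds by more than over the whole class, where the ratio was -0.31 (-0.64 to 0.00). Macrophages (20.7, 18.2 and 21.4 CPM) and pericytes (44.9, 39.7 and 44.8 CPM) had the same order of the 3 libraries with intervals that included 0.

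Slc2a3 was high in fibroblasts, macrophages and pericytes and nearly absent in cardiomyocytes, which gave 6, 9 and 8 UMIs in the 3 libraries. Pericytes gave 52, 47 and 80 UMIs, and their TAC over Sham ratio of -0.30 was not past the fold. Fibroblasts had 64.2, 23.6 and 32.6 CPM, a ratio of -1.44 (-1.71 to -1.18), and macrophages 44.2, 22.5 and 54.3 CPM, a ratio of -0.98 (-1.41 to -0.53). In macrophages Slc2a3 was higher in TAC+ART than in TAC by 1.27 (0.98 to 1.57), the one carrier ratio past the fold there. Endothelial Slc2a3 was lower in TAC by the same measure (19.5, 12 and 16.1 CPM, -0.70, -1.14 to -0.26). Slc2a1 (GLUT1), the carrier of most cells in culture, was scarce throughout, at 3.47 to 8.99 CPM in the 5 classes and 3 libraries, and was measured in endothelial cells alone of the 5 (0.54, -0.12 to 1.29).

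Hexokinases, which trap glucose as glucose 6-phosphate, differed in direction by class. Hk2, the insulin-responsive isoform, had 611, 291 and 308 CPM in cardiomyocytes, and its ratio was -1.07 (-1.23 to -0.90). Both droplet kinds had it lower, mt-poor ones at 635, 271 and 333 CPM (-1.23, -1.46 to -1.01) and mt-rich ones at 469, 312 and 238 CPM (-0.59, -0.90 to -0.27). Sham cardiomyocytes were the highest of all classes and libraries for this gene, and TAC+ART stayed near TAC.

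Macrophages had 130, 70.1 and 95.2 CPM of Hk2, lower in TAC by a ratio of -0.89 (-1.14 to -0.64). Fibroblasts went the other way, with 28.9, 49.1 and 21.8 CPM, a TAC over Sham ratio of 0.76 (0.49 to 1.05) and a TAC+ART over TAC ratio of -1.17 (-1.43 to -0.91). The difference between classes was not tested. The share of cells with an Hk2 UMI had the same directions: in cardiomyocytes it was 83.7%, 54.8% and 60.8%, and 40.8%, 21.9% and 24.4% after each cell was thinned to 1000 UMIs, and in fibroblasts it was 10.8%, 21.8% and 10.5%, and 2.28%, 5.52% and 2.08% after thinning. Endothelial cells (26.8, 24.4 and 25.9 CPM) and pericytes (21.5, 25.9 and 23.1 CPM) differed little between libraries.

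Hk1, the housekeeping isoform, varied less, with TAC over Sham ratios from -0.24 (pericytes) to 0.24 (endothelial cells). As a share of Hk1 and Hk2 UMIs, Hk2 made up 85.6% (83.7 to 87.3), 73.5% (69.6 to 77.2) and 76.3% (73.4 to 79.0) in cardiomyocytes and 36.6% (31.8 to 41.6), 47.7% (44.3 to 51.1) and 29.7% (26.1 to 33.6) in fibroblasts. Within mt-rich droplets the shares were 79.6%, 76.3% and 72.9% with overlapping intervals, and within mt-poor ones 86.4%, 70.6% and 77.2%. Hk3, the hexokinase of blood-derived cells, was found almost wholly in macrophages, at 67.0, 36.4 and 71.0 CPM, with a ratio of -0.88 (-1.22 to -0.53), and was higher in TAC+ART than in TAC by 0.96 (0.72 to 1.21). It had a UMI in 23.4%, 14.6% and 23.0% of macrophages and in at most 1.09% of the cells of any other main class, where the median depths were 3523 to 7364 UMIs. Gpi1, which converts glucose 6-phosphate to fructose 6-phosphate, was past the fold in cardiomyocytes (86.6, 184 and 108 CPM, 1.08, 0.80 to 1.37), with 0.42 (-0.04 to 0.85) in mt-poor and 0.70 (0.25 to 1.19) in mt-rich droplets, and fibroblasts had 0.57 (0.37 to 0.78).

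Phosphofructokinase, the committed step, differed in its isoform make-up. Pfkp was higher in TAC in every main class and lower again in TAC+ART. Fibroblasts had 47.0, 83.2 and 46.6 CPM of Pfkp (TAC over Sham 0.82, 0.61 to 1.04), endothelial cells 32.1, 60.0 and 35.6 CPM (0.90, 0.62 to 1.19), and macrophages 18.0, 46.2 and 29.7 CPM (1.34, 0.78 to 2.0). Pericytes had 30.7, 46.3 and 31.1 CPM (0.59, 0.07 to 1.13), just past the fold. Cardiomyocytes had 35.4, 90.3 and 51.2 CPM (1.35, 0.92 to 1.79), and the values within mt-poor droplets were 36.5, 92.7 and 52.5 CPM (1.35, 0.82 to 1.87), so the difference was as large without the mt-rich droplets. Mt-rich droplets gave 9, 60 and 29 Pfkp UMIs, too few to be counted as measured.

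TAC+ART over TAC, which shares the TAC library with the comparison above, gave Pfkp ratios of -0.83 (-1.02 to -0.65) in fibroblasts, -0.75 (-0.97 to -0.54) in endothelial cells, -0.63 (-0.93 to -0.34) in macrophages, -0.57 (-1.06 to -0.09) in pericytes and -0.82 (-1.20 to -0.44) in cardiomyocytes. In fibroblasts, endothelial cells and pericytes the Pfkp level of TAC+ART was within 4 CPM of Sham.

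Pfkm, the muscle isoform, was lower in TAC in all 5 classes, past the fold in fibroblasts (35.9, 21.6 and 34.4 CPM, -0.73, -1.04 to -0.42) and in mt-poor cardiomyocytes (226, 143 and 209 CPM, -0.65, -0.99 to -0.34). Pfkl, the liver isoform, had intervals that included 0 in each class, with 7.44 to 33.0 CPM. The share of Pfkp among the 3 isoforms was 51.7% (46.9 to 56.4), 73.0% (70.0 to 75.8) and 52.7% (49.0 to 56.5) in fibroblasts of Sham, TAC and TAC+ART. Endothelial shares were 35.7% (30.7 to 40.9), 53.2% (50.01 to 56.4) and 36.0% (32.6 to 39.5). The 2 droplet kinds of cardiomyocytes had similar shares, 12.7% (9.96 to 15.9), 36.8% (29.6 to 44.4) and 18.3% (15.0 to 22.0) in mt-poor ones and 11.1% (5.21 to 20.05), 30.5% (24.1 to 37.4) and 15.8% (10.8 to 21.8) in mt-rich ones. In macrophages they were 31.3%, 55.6% and 38.9%, and in pericytes, where the intervals overlapped, 37.9%, 49.1% and 40.0%. TAC had the highest Pfkp share in each of these classes.

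**Figure D2:**
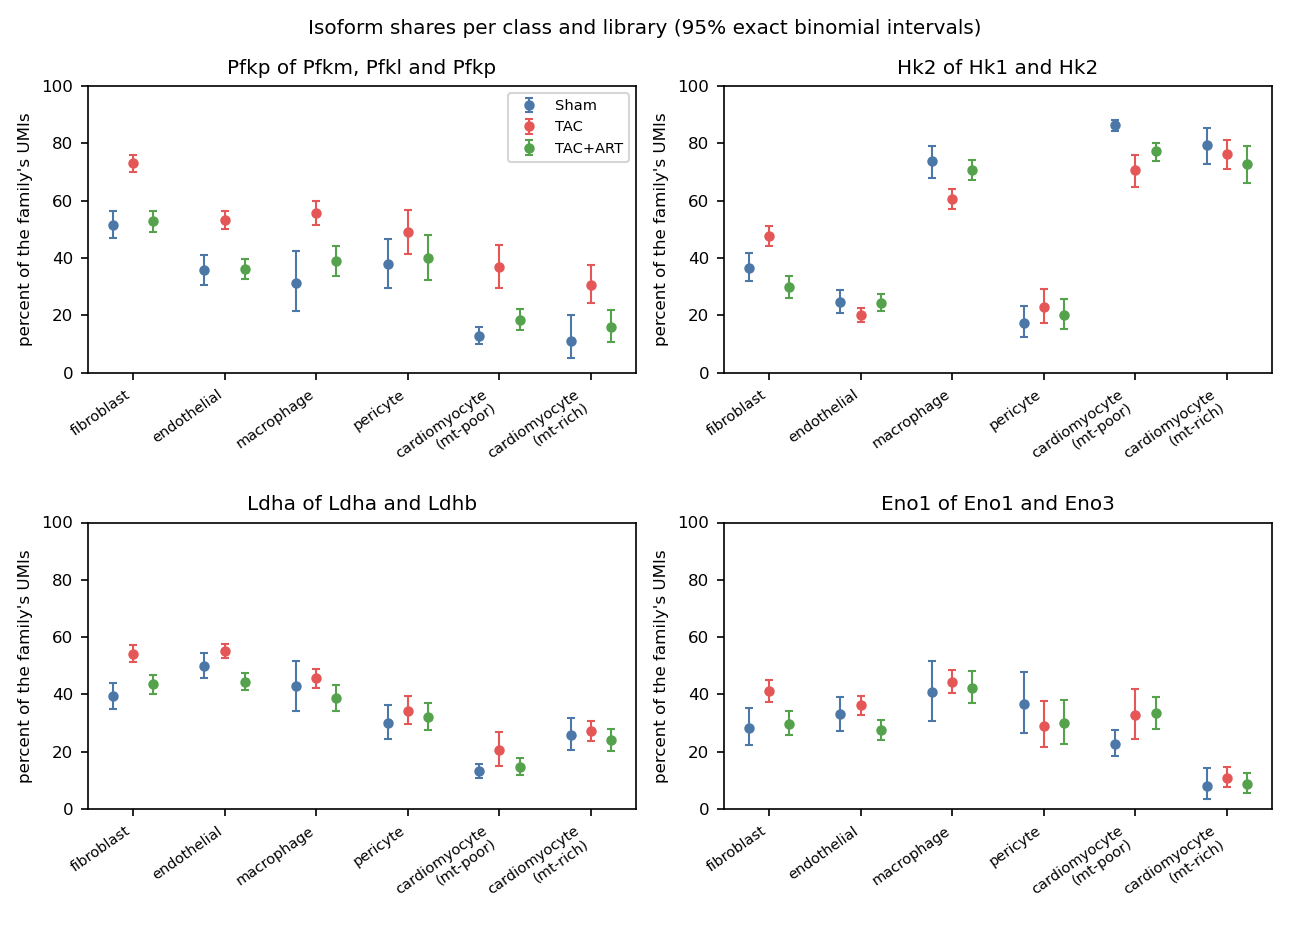
Share of 1 isoform in the UMIs of its family (y axis, percent, with exact binomial 95% intervals) by cell class (x axis), coloured by library. The Pfkp share was highest in TAC in all 6 columns, 73.0% in fibroblasts and 36.8% in mt-poor cardiomyocytes, while the Hk2 share was lowest in TAC in mt-poor cardiomyocytes (70.6%) and highest in TAC in fibroblasts (47.7%).

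The Pfkfb genes encode the bifunctional enzymes that make and remove fructose 2,6-bisphosphate, the activator of phosphofructokinase, and they were lower or close to level in TAC. Pfkfb1 marked cardiomyocytes, at 140, 42.3 and 83.3 CPM, with a ratio of -1.72 (-2.16 to -1.32), and TAC+ART stood above TAC by 0.97 (0.55 to 1.43). Mt-poor droplets, which held 285 of its 293 Sham UMIs, had 160, 71.0 and 101 CPM (-1.16, -1.64 to -0.73). The share of cardiomyocytes with a Pfkfb1 UMI was 39.6%, 13% and 24.9%, and 12.6%, 1.71% and 6.67% after thinning to 1000 UMIs. Endothelial Pfkfb1 was also lower in TAC at low levels (11.8, 5.38 and 9.30 CPM, -1.13, -1.75 to -0.51).

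Pfkfb2, the heart isoform that insulin signalling activates, had 55.5, 35 and 57.3 CPM in cardiomyocytes (-0.66, -1.18 to -0.17), but 57.2, 55.0 and 67.8 CPM in the mt-poor droplets (-0.04, -0.63 to 0.49). Fibroblasts had 12.9, 6.29 and 11.4 CPM (-1.04, -1.60 to -0.49), and in endothelial cells the level was 13.5 CPM in TAC+ART against 5.61 in TAC (1.26, 0.76 to 1.79). Pfkfb3, the inducible isoform with high kinase activity, was most abundant in macrophages (244, 207 and 177 CPM, -0.24, -0.40 to -0.06). It was past the fold downward in endothelial cells (80.2, 44.8 and 51.6 CPM, -0.84, -1.06 to -0.62) and in fibroblasts (36.7, 21 and 27.3 CPM, -0.80, -1.11 to -0.50). Pfkfb4 was likewise most abundant in macrophages, at 120, 109 and 104 CPM (-0.15, -0.39 to 0.10), but was not confined to them. Pericytes gave 72, 88 and 94 of its UMIs and fibroblasts had 21.4, 17.8 and 18.5 CPM. Its share of the UMIs of the 4 Pfkfb genes was 38.1%, 48.9% and 42.5% in pericytes and 31.2%, 33.0% and 34.6% in macrophages.

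**Figure D3:**
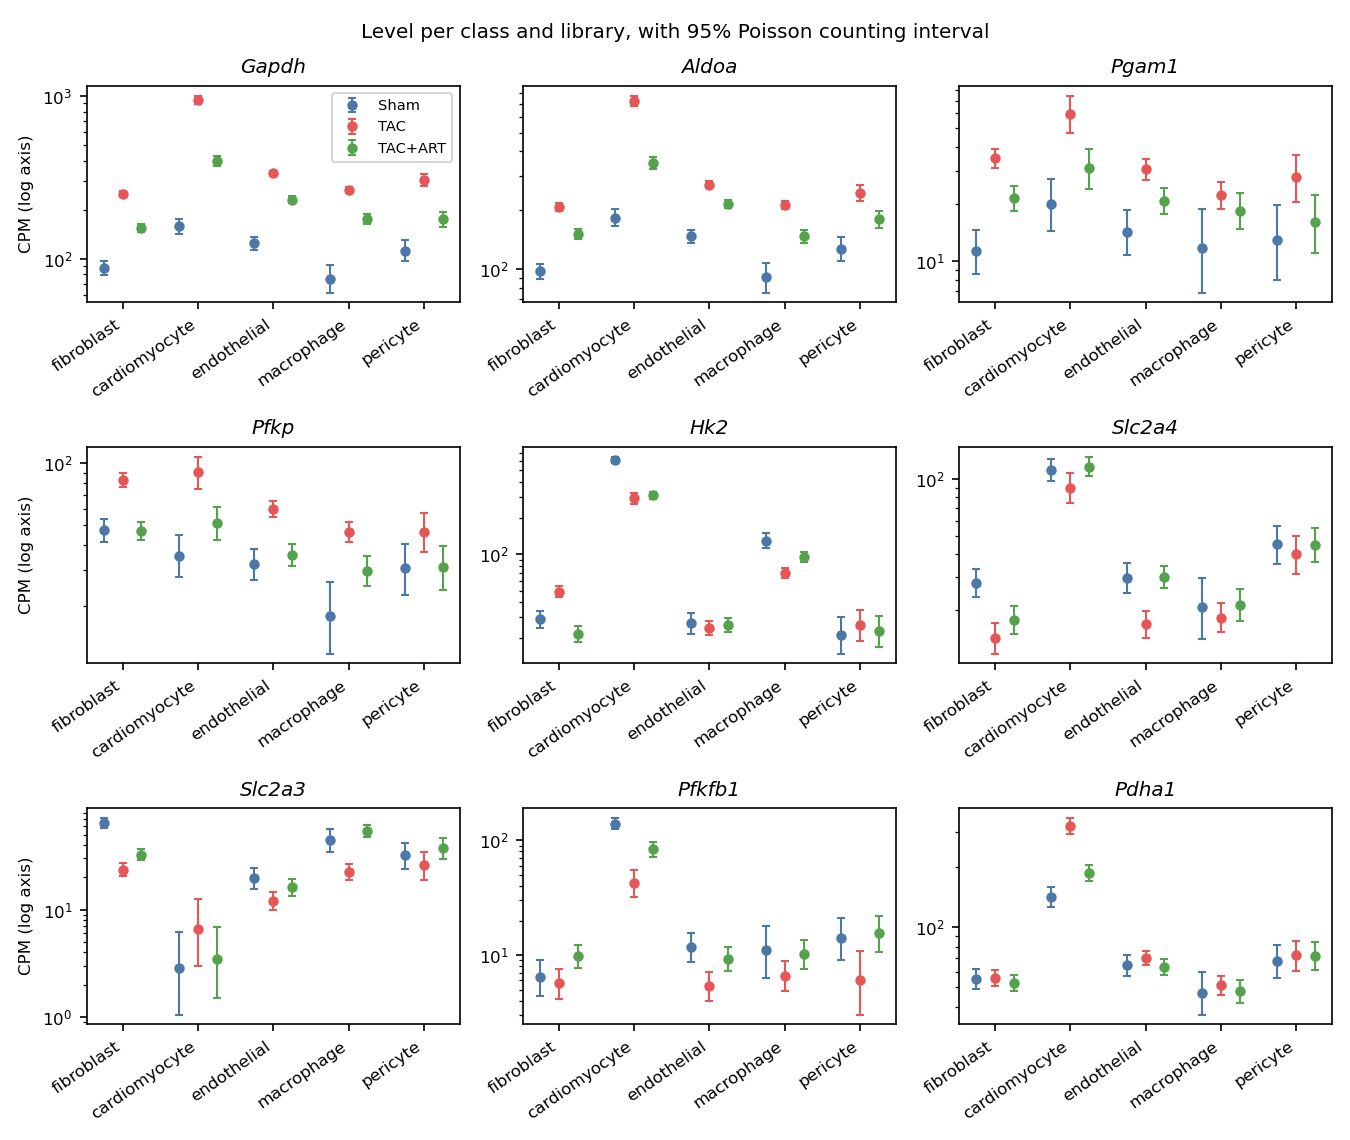
CPM on a log axis for 9 members by class (x axis), coloured by library, with 95% Poisson counting intervals. Gapdh, Aldoa, Pgam1 and Pfkp are highest in TAC in each class, while Slc2a4 and cardiomyocyte Pfkfb1 and Hk2 are lowest there.

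The enzymes after phosphofructokinase held the largest differences. Gapdh, which oxidises glyceraldehyde 3-phosphate, had 87.6, 249 and 155 CPM in fibroblasts of Sham, TAC and TAC+ART, a TAC over Sham ratio of 1.51 (1.36 to 1.66). Endothelial cells had 124, 334 and 230 CPM (1.43, 1.29 to 1.57), macrophages 75.3, 264 and 174 CPM (1.80, 1.53 to 2.10) and pericytes 112, 305 and 174 CPM (1.44, 1.20 to 1.70). In each of these classes TAC was the highest library, Sham the lowest, and TAC+ART lay between.

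Cardiomyocytes had the widest Gapdh range, 158, 946 and 398 CPM, a ratio of 2.58 (2.41 to 2.76) over the whole class. Mt-poor droplets had 74.1, 197 and 112 CPM (1.41, 1.05 to 1.77) and mt-rich ones 644, 1705 and 1194 CPM (1.40, 1.19 to 1.63), so that within each kind the ratio was near that of the other classes. TAC+ART over TAC gave -0.69 (-0.79 to -0.58) in fibroblasts, -0.54 (-0.62 to -0.45) in endothelial cells, -0.60 (-0.72 to -0.48) in macrophages, -0.81 (-1.0 to -0.62) in pericytes, and -0.82 (-1.14 to -0.49) and -0.51 (-0.65 to -0.38) in mt-poor and mt-rich cardiomyocytes. The share of fibroblasts with a Gapdh UMI was 32.5%, 74.8% and 54.7%, and 8.84%, 25.9% and 16% after thinning to 1000 UMIs.

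Aldoa, the muscle-type aldolase that splits fructose 1,6-bisphosphate, followed the same order of libraries in each class. Its levels were 97.1, 207 and 151 CPM in fibroblasts (1.09, 0.94 to 1.24), 147, 270 and 215 CPM in endothelial cells (0.88, 0.75 to 1.01) and 90.5, 213 and 147 CPM in macrophages (1.23, 0.98 to 1.5). Cardiomyocytes had 183, 725 and 348 CPM (1.98, 1.81 to 2.16), with 0.93 (0.57 to 1.28) in mt-poor and 0.82 (0.61 to 1.04) in mt-rich droplets. Tpi1, the triosephosphate isomerase beside it, was past the fold in fibroblasts (0.63, 0.38 to 0.90), macrophages (0.69, 0.30 to 1.13) and cardiomyocytes (1.60, 1.33 to 1.88), and had 0.55 in each droplet kind.

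Pgk1, the first ATP-making enzyme, was past the fold in 4 classes. Macrophages had 11.7, 39.5 and 24.6 CPM (1.71, 1.04 to 2.55), and endothelial cells 20.6, 47.0 and 35.8 CPM (1.19, 0.85 to 1.55). Fibroblasts had 19.4, 39.8 and 28.3 CPM (1.03, 0.71 to 1.38), and in pericytes the ratio was 0.46 (-0.11 to 1.05). Cardiomyocytes had 40.7, 124 and 70.3 CPM (1.60, 1.22 to 2.0), with 0.84 (0.32 to 1.43) in mt-rich and 0.41 (-0.36 to 1.12) in mt-poor droplets.

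The mutases that move the phosphate of 3-phosphoglycerate were both higher. Pgam1 had 11.3, 34.8 and 21.5 CPM in fibroblasts (1.61, 1.21 to 2.06), 14.3, 30.4 and 20.8 CPM in endothelial cells (1.08, 0.67 to 1.53) and 12.9, 27.6 and 16 CPM in pericytes (1.08, 0.33 to 1.90). Pgam2 had 34.7, 56.1 and 46.6 CPM in fibroblasts (0.69, 0.44 to 0.95), 41.6, 97.9 and 82.6 CPM in endothelial cells (1.23, 0.99 to 1.48) and 89.5, 384 and 190 CPM in cardiomyocytes (2.10, 1.86 to 2.35). Within the droplet kinds Pgam2 had ratios of 0.99 (0.47 to 1.51) in mt-poor and 0.90 (0.61 to 1.22) in mt-rich cardiomyocytes, while Pgam1 had 0.15 (-0.57 to 0.96) in mt-rich ones. The Pgam1 share of both mutases in fibroblasts was 24.6% (19.1 to 30.7), 38.3% (34.8 to 41.9) and 31.5% (27.6 to 35.6). Bpgm, which makes the haemoglobin ligand 2,3-bisphosphoglycerate, was past the fold once, in TAC+ART over TAC of endothelial cells (13, 9.70 and 15.5 CPM, 0.67, 0.25 to 1.09).

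Enolase and pyruvate kinase end the pathway. Eno1, the broadly used enolase, had 11.5, 30.3 and 17.6 CPM in fibroblasts (1.39, 0.98 to 1.84), 21.6, 35.9 and 23.4 CPM in endothelial cells (0.73, 0.39 to 1.10) and 26.3, 42.3 and 29.3 CPM in macrophages (0.67, 0.20 to 1.22). Eno3, the muscle enolase, had 0.47 to 0.58 in those classes and 0.66 (0.45 to 0.87) in all cardiomyocytes but -0.31 (-0.69 to 0.04) in mt-poor ones and 0.36 (0.04 to 0.70) in mt-rich ones. The sign of the Eno3 ratio in cardiomyocytes thus depended on the kind of droplet counted, though the mt-poor interval spanned both signs. Pkm, pyruvate kinase of muscle and of most other cells, did the same, with 0.76 (0.54 to 0.98) over the class, -0.19 (-0.58 to 0.19) in mt-poor and 0.35 (0.02 to 0.69) in mt-rich droplets, while fibroblasts had 59.5, 97.7 and 65.1 CPM (0.71, 0.52 to 0.91) and pericytes 81.8, 132 and 101 CPM (0.69, 0.38 to 1.01).

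**Figure D4:**
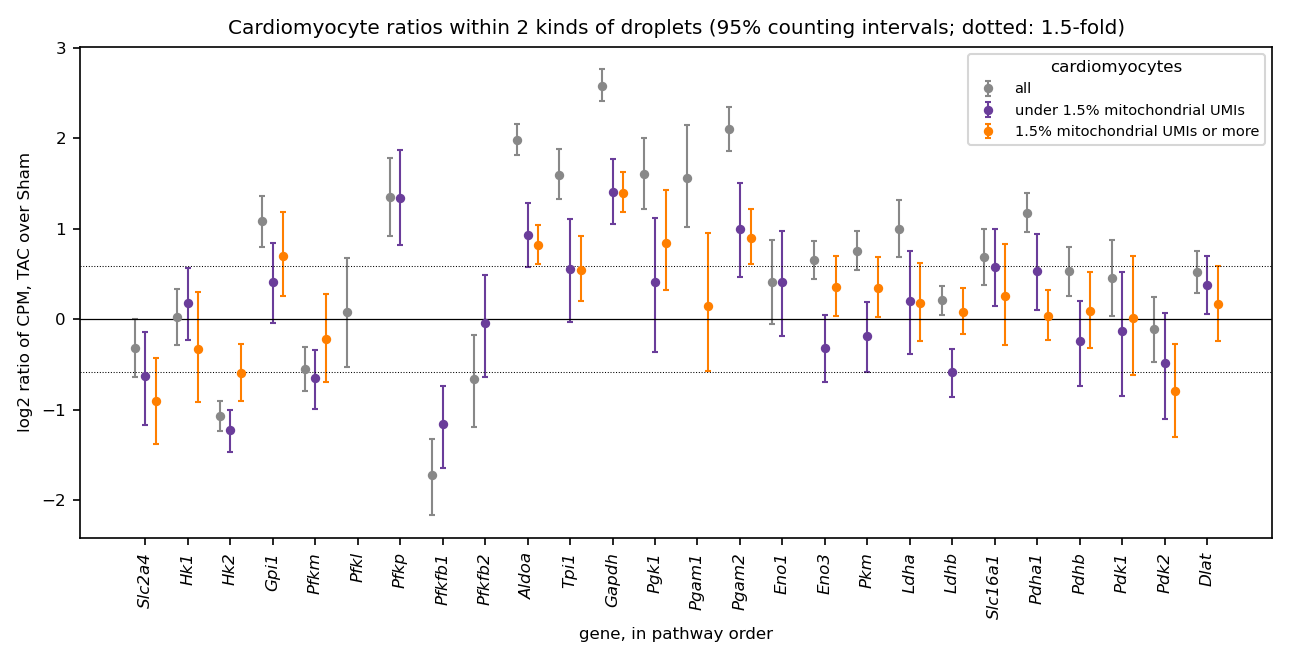
Log2 ratios of TAC over Sham in cardiomyocytes (y axis) for the 26 members measured in the class (x axis), for all droplets (grey), mt-poor (purple) and mt-rich (orange) ones, with 95% counting intervals; dotted lines mark 1.5-fold. Gapdh is at 2.58 over the class and at 1.41 and 1.40 within the kinds. Eno3 and Pkm lay below 0 in mt-poor droplets, with intervals that reached above 0.

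Lactate dehydrogenase is built from Ldha, which favours lactate formation, and Ldhb, the heart subunit. Ldha had 39.0, 72.5 and 45.7 CPM in fibroblasts (0.89, 0.66 to 1.14), 69.7, 106 and 70.6 CPM in endothelial cells (0.61, 0.42 to 0.81) and 39.4, 60.7 and 39.2 CPM in macrophages (0.61, 0.22 to 1.05). In those 3 classes TAC+ART stood within 7 CPM of Sham, with TAC+ART over TAC ratios of -0.67 (-0.86 to -0.48), -0.59 (-0.75 to -0.44) and -0.63 (-0.89 to -0.38). Pericytes had 46.1, 73.9 and 62.7 CPM (0.68, 0.26 to 1.11). Cardiomyocytes had 1.0 (0.69 to 1.31) over the class but 0.21 (-0.38 to 0.75) and 0.18 (-0.24 to 0.62) within mt-poor and mt-rich droplets.

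Ldhb was not past the fold in any main class, with 0.03 to 0.46 for TAC over Sham, though mt-poor cardiomyocytes had 335, 223 and 275 CPM (-0.58, -0.85 to -0.33). The Ldha share of both subunits in fibroblasts was 39.4% (35 to 43.9), 54.2% (51.2 to 57.2) and 43.5% (40.1 to 46.9), and in mt-poor cardiomyocytes 13.1% (10.7 to 15.9), 20.6% (15.2 to 27.0) and 14.6% (11.8 to 17.9). Slc16a1 (MCT1), a two-way lactate carrier, was past the fold in cardiomyocytes (80.9, 130 and 121 CPM, 0.69, 0.38 to 1.0), with 0.58 (0.14 to 1.0) in mt-poor droplets.

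Genes of pyruvate dehydrogenase differed little between libraries outside cardiomyocytes. Pdha1, its catalytic alpha subunit, had 143, 323 and 188 CPM in cardiomyocytes (1.18, 0.96 to 1.39), but 521, 537 and 510 CPM in mt-rich droplets (0.04, -0.23 to 0.32) and 77.4, 112 and 71.9 CPM in mt-poor ones (0.53, 0.10 to 0.94). In the other 4 classes Pdha1 ratios were 0.01 to 0.12. Pdhb, the beta subunit, and Dlat, the acetyltransferase core, were past the fold in no main class, at -0.21 to 0.53 and -0.16 to 0.52. Of the inhibitory kinases, Pdk1 was past it downward in pericytes (28.3, 17.1 and 22.2 CPM, -0.72, -1.43 to -0.04, from 46 and 31 UMIs), and Pdk2 in mt-rich cardiomyocytes (192, 111 and 110 CPM, -0.79, -1.29 to -0.27).

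TAC+ART was set against TAC with the same TAC library as above, so the 2 comparisons are not independent and are given side by side. No member measured in all 5 classes was past the fold in all of them in either direction. Of the 22, 12 were lower in TAC+ART in all 5, and Slc2a4 was higher in all 5. The shares of all genes that did so in all 5 classes were not counted. Fibroblasts had 6 of 30 members past the fold downward (Hk2, Pfkp, Gapdh, Pgam1, Eno1, Ldha; 6.73% of all genes) and 3 upward (Pfkm, Pfkfb1, Pfkfb2; 7.22%). Endothelial cells had 3 of 31 downward (Pfkp, Eno1, Ldha; 4.62%) and 4 upward (Slc2a4, Pfkfb1, Pfkfb2, Bpgm; 5.53%). Macrophages had 4 of 31 downward (Pfkp, Gapdh, Pgk1, Ldha; 5.45%) and 3 upward (Slc2a3, Hk3, Pfkfb1; 5.52%), though 1 in place of 4 was downward under TMM or DESeq2 scaling or with classes from clusters. Pericytes had 4 of 25 downward (Tpi1, Gapdh, Pgam1, Pgam2; 4.53%) and 0 upward (4.35%).

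In cardiomyocytes 10 of 26 were past it downward (16.4% of all genes) and 2 upward, Pfkfb1 and Pfkfb2 (10.3%). Within the mt-poor droplets 4 of 24 were downward (Gpi1, Pfkp, Gapdh, Pdha1; 9.47%) and 1 upward (Slc2a4; 7.90%), and within the mt-rich ones 0 of 21 were past it either way (5.54% and 11.9% of all genes). The members' medians were -0.06 in fibroblasts, -0.31 in cardiomyocytes, -0.045 in endothelial cells, -0.21 in macrophages and -0.09 in pericytes, beside -0.05, -0.01, -0.01, -0.06 and -0.03 over all genes.

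Free RNA released from broken cells is captured in every droplet, so the 10 cardiomyocyte markers of the gate (Ttn, Ryr2, Myh6 and others) were followed in the other classes. All 10 had UMIs there, summed to 4038, 4461 and 4691 CPM in fibroblasts and to 5866, 6967 and 7485 CPM in endothelial cells. In macrophages the sums were 4490, 5587 and 5693 CPM, and in pericytes 5066, 7223 and 6319 CPM. TAC over Sham ratios of the 10 markers ran from -1.73 to 1.02 in fibroblasts (median 0.05), from -1.17 to 1.02 in endothelial cells (0.08), from -0.99 to 1.21 in macrophages (0.13) and from -0.33 to 1.29 in pericytes (0.42). The Gapdh ratio lay above the highest marker in each of these 4 classes. It did so in the cardiomyocyte class too, at 2.58 against 1.77. This order therefore cannot tell free Gapdh RNA from the RNA of the class itself, and the part of each was not tested.

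Set against the level in mt-rich cardiomyocytes, the markers stood at medians of 7.5%, 10.8%, 8.18% and 9.10% in Sham fibroblasts, endothelial cells, macrophages and pericytes, with 9.65%, 13%, 9.25% and 21.4% as the highest. In TAC the medians were 7.47%, 12.4%, 9.67% and 11.8%, and the highest markers stood at 11.8%, 14.5%, 11.4% and 68.5%. Gapdh stood at 13.6% in Sham and 14.6% in TAC fibroblasts, 19.3% and 19.6% in endothelial cells, 11.7% and 15.5% in macrophages and 17.4% and 17.9% in pericytes. Pgam2 in fibroblasts stood at 9.44% and 8.14% and Tpi1 at 12.4% and 13.1%, where the highest marker stood at 9.65% and 11.8%. The Gapdh fraction thus differed little between Sham and TAC in fibroblasts, endothelial cells and pericytes and was higher in TAC in macrophages. In fibroblasts of Sham and TAC, Slc2a4 stood at 12.3% and 11.6%, Eno3 at 8.51% and 9.87% and Ldhb at 9.85% and 9.48%. Pdha1 stood at 10.6% and 10.3% there and Slc16a1 at 9.54% and 11.5%. The part that free cardiomyocyte RNA has in the ratios of these members in the other classes was not tested. Nor was it for Gapdh, Aldoa, Tpi1, Pgk1 and Pgam2. In fibroblasts Gapdh, Tpi1, Aldoa (13.4% and 16.1%) and Pgk1 (16.5% and 18.7%) stood above the highest marker in both libraries. Gapdh did so in endothelial cells and macrophages too, but not in pericytes. Also above the highest marker in both libraries were Pfkp in fibroblasts at 161% and 94.5% of the mt-rich level and Pgam1 in fibroblasts at 15.8% and 43.2%. The same held for Eno1 in macrophages at 89.7% and 80.2% and Hk2 in macrophages at 27.7% and 22.5%. Against the whole cardiomyocyte class, Hk2 in macrophages stood at 21.3% and 24.1%, and the highest marker at 32.8% and 19.5%. The part of free RNA was not tested for these members either. The mt-rich share of fibroblast droplets was itself 3.77%, 9.56% and 6.10%.

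Markers of other cell types moved with the libraries too. The 10 fibroblast markers, all with UMIs in each library, summed to 754, 2764 and 2518 CPM in cardiomyocytes, 1098, 2708 and 3255 CPM in endothelial cells, 1371, 2364 and 2810 CPM in macrophages and 2047, 3151 and 3748 CPM in pericytes. The 3 erythroid markers summed to 240, 740 and 1189 CPM in fibroblasts, 622, 2046 and 2306 CPM in cardiomyocytes, 614, 1955 and 2725 CPM in endothelial cells, 245, 856 and 1705 CPM in macrophages and 266, 1131 and 1589 CPM in pericytes. Both lists were thus higher in TAC and in TAC+ART than in Sham in each of these classes, and their part in the members' ratios was not tested.

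**Figure D5:**
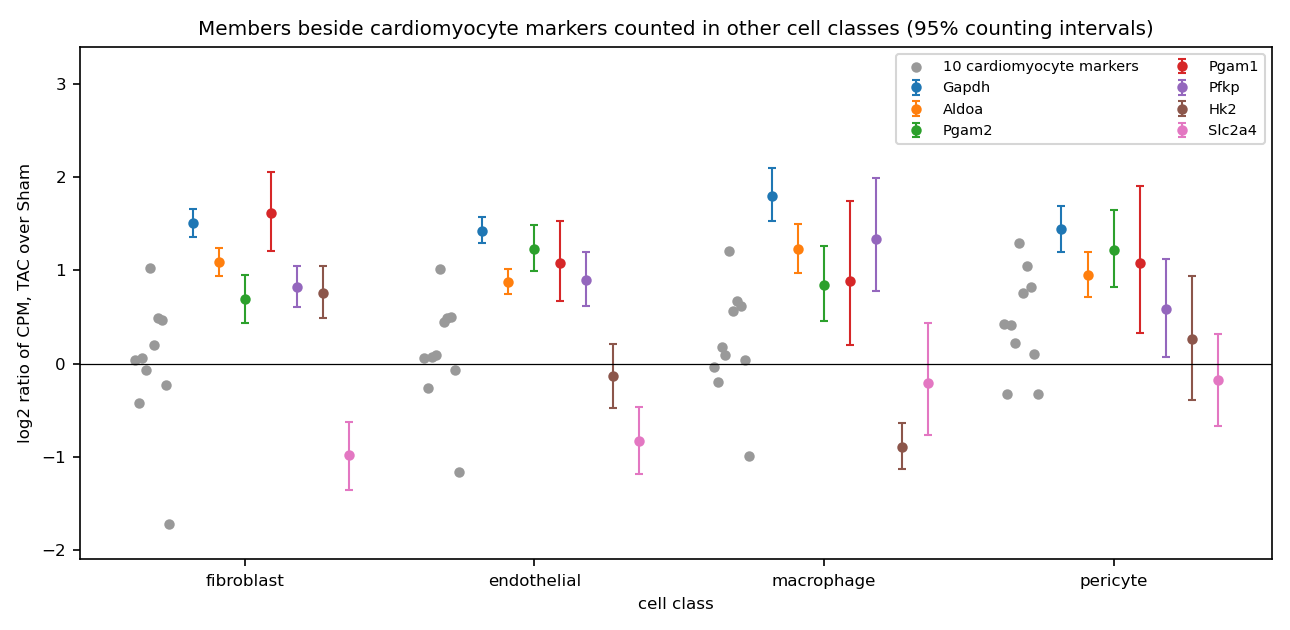
Log2 ratios of TAC over Sham (y axis) in 4 classes (x axis) for 7 members, with 95% counting intervals, beside the 10 cardiomyocyte markers counted in the same cells (grey). Gapdh lies above every grey point in each class, from 1.43 to 1.80, and Slc2a4 lies below 0 in each. The part of free cardiomyocyte RNA in these ratios was not tested.

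Neighbouring pathway genes were read through 10 lists, by their counts past the fold in TAC over Sham. The background for them is the share of all genes past it upward and downward, as above: 17.2% and 12.8% in fibroblasts, 10.6% and 9.14% in endothelial cells, 11.7% and 11.3% in macrophages, 11.0% and 7.70% in pericytes and 25.1% and 19.1% in cardiomyocytes (13.1% and 13.3% in mt-poor, 20.2% and 20.6% in mt-rich droplets). Of the regulators of glycolytic genes, 0 of 9 measured in cardiomyocytes were past the fold upward and 5 downward (median -0.75), with 0 and 2 of 8 in mt-poor droplets (-0.43) and 0 and 3 of 4 in mt-rich ones (-1.03). The counts were 0 and 4 of 9 in fibroblasts (-0.37), 0 and 3 of 9 in endothelial cells (-0.20), 0 and 1 of 6 in macrophages (-0.19) and 1 and 2 of 6 in pericytes (-0.06). Foxo3, a transcription factor held back by insulin signalling, had 296, 128 and 310 CPM in cardiomyocytes (-1.21, -1.46 to -0.96), and was lower in mt-poor (-0.91) and mt-rich droplets (-0.82). In fibroblasts Klf15, a glucocorticoid-responsive metabolic factor, went from 35.1 to 14.5 CPM (-1.27, -1.62 to -0.93) and Foxo3 had 0.54 (0.43 to 0.65). Ppargc1a, the coactivator of mitochondrial genes, had 30.4, 12.6 and 29.3 CPM in macrophages (-1.27, -1.81 to -0.71), and its TAC+ART over TAC ratio was 0.92 (0.65 to 1.20) in endothelial cells and 0.94 (0.63 to 1.27) in fibroblasts.

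The mitochondrial pyruvate entry list had 4 of 8 cardiomyocyte genes upward and 2 downward (median 0.63), but 1 and 1 of 7 in mt-poor droplets (0.04). Mpc2, a subunit of the pyruvate carrier, was past the fold upward in all 5 classes, for example in fibroblasts (48.8 and 82.8 CPM, 0.76, 0.55 to 0.98), macrophages (33.9 and 81.6 CPM, 1.25, 0.85 to 1.72) and mt-rich cardiomyocytes (0.98, 0.64 to 1.34), with 0.18 (-0.18 to 0.52) in mt-poor ones. Pdk4, the PDH kinase induced by fatty acids, had 45.5, 97.6 and 36.4 CPM in cardiomyocytes (1.10, 0.71 to 1.5, and -1.42, -1.83 to -1.02, for TAC+ART over TAC), and mt-rich droplets had 0.97 (0.34 to 1.70). The NADH shuttles, which carry the reducing equivalents of glycolysis into mitochondria, had 5 of 9 upward and 1 downward in cardiomyocytes (0.70), against 1 and 0 of 8 in mt-poor droplets (0.08). Their Slc25a13, an aspartate-glutamate carrier, was lower in both kinds, at -0.33 (-0.56 to -0.12) and -0.89 (-1.40 to -0.36).

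Among the other carriers, Bsg, the partner that brings MCT1 and MCT4 to the membrane, was higher in TAC in fibroblasts (83.2 and 153 CPM, 0.88, 0.71 to 1.04) and pericytes (0.97, 0.65 to 1.30). Slc16a10, an aromatic amino acid carrier, was lower in cardiomyocytes (420, 119 and 227 CPM, -1.81, -2.06 to -1.57), in mt-poor (-1.16) as in mt-rich droplets (-2.20). That list had 3 of 7 upward and 4 downward in fibroblasts, 0 and 4 of 7 in endothelial cells, 2 and 1 of 6 in macrophages, and 1 and 1 of 2 in cardiomyocytes. The insulin, AMPK and GLUT4 traffic list had 5 upward and 3 downward of 17 in fibroblasts and 2 and 1 of 12 in cardiomyocytes. Tbc1d4, which holds GLUT4 inside the cell until insulin acts, had 667 and 268 CPM in cardiomyocytes of Sham and TAC (-1.31, -1.48 to -1.15), with -0.79 in mt-poor and -1.64 in mt-rich droplets. Arrdc4, a gene induced by glucose that limits its uptake, was higher in TAC and lower in TAC+ART in fibroblasts (7.67, 22.5 and 10.0 CPM, 1.54, 1.04 to 2.10) and macrophages (15.2, 35.9 and 13.5 CPM, 1.21, 0.61 to 1.94).

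The list of HIF and its targets outside glycolysis had 2 of 14 upward and 2 downward in fibroblasts, 2 and 2 of 15 in endothelial cells, 2 and 1 of 12 in macrophages and 2 and 1 of 11 in pericytes. Cardiomyocytes had 4 and 1 of 12, with 1 and 1 of 11 in mt-poor and 1 and 3 of 8 in mt-rich droplets. P4ha1, a collagen prolyl hydroxylase, was higher in TAC in endothelial cells (91.5, 161 and 91.6 CPM, 0.81, 0.65 to 0.98), macrophages (0.68, 0.47 to 0.90) and pericytes (0.87, 0.65 to 1.10), whereas Vegfa, the endothelial growth factor, was lower in fibroblasts (94.9, 57.2 and 80.8 CPM, -0.73, -0.92 to -0.54) and cardiomyocytes (563, 331 and 531 CPM, -0.77, -0.93 to -0.61). The glycogen list had 3 upward and 3 downward of 17 in fibroblasts and 3 and 2 of 14 in cardiomyocytes; Ppp1r3c, which targets a phosphatase to glycogen, was higher in both (3.43 and 10.5 CPM, 1.58, 0.85 to 2.46, and 26.3 and 75.8 CPM, 1.52, 1.04 to 2.02), as was Ugp2, the enzyme that makes UDP-glucose, in mt-poor cardiomyocytes (137 and 261 CPM, 0.92, 0.64 to 1.21).

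In the pentose phosphate list 3 of 8 were upward and 1 downward in fibroblasts and 2 and 2 of 4 in cardiomyocytes, where Tkt, transketolase, had 68.9, 35.7 and 84.6 CPM (-0.94, -1.45 to -0.47). The hexosamine, polyol and serine list had 1 and 1 of 13 in fibroblasts and 2 and 0 of 10 in endothelial cells, with Gfpt2, a rate-limiting hexosamine enzyme, at 11.8, 21.5 and 8.64 CPM in the latter (0.86, 0.40 to 1.36). Other isoforms and branch-point enzymes of glycolysis were mostly too scarce, with 0 of 5 past the fold in fibroblasts and 0 of 3 in cardiomyocytes.

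Endocardial and lymphatic endothelial cells were smaller classes, in which 17 and 15 of the 34 members were measured. In endocardial cells 8 of 17 were past the fold upward in TAC over Sham (Pfkp, Aldoa, Tpi1, Gapdh, Pgk1, Pgam2, Eno3, Ldha; 10.3% of all genes) and 0 downward (10.1%), with a median of 0.52 beside -0.03. In lymphatic endothelial cells 8 of 15 were past it upward (Aldoa, Gapdh, Pgk1, Pgam2, Eno3, Pkm, Ldha, Ldhb; 13%) and 0 downward (8.34%), with a median of 0.61 beside 0.00. In TAC+ART over TAC, 0 of 17 were upward (7.49%) and 1 downward (5.85%) in endocardial cells, and 0 of 15 upward (4.66%) and 4 downward (5.41%) in lymphatic ones. Fractions of the mt-rich cardiomyocyte level were as follows in Sham and TAC. Lymphatic Pgam2 stood at 10.2% and 8.57%, Eno3 at 9.28% and 12.4%, Ldhb at 6.63% and 10.2% and the highest cardiomyocyte marker at 10.5% and 11.9%. Endocardial Pgam2 stood at 6.18% and 9.18%, Gapdh at 16.7% and 13.8% and the highest marker at 11.5% and 14.8%. The part of free RNA in these ratios was not tested.

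Some members overlap other genes in the annotation, and reads shared between them were not measured. It places 15 of the 34 members over another gene of the matrices, 13 of them on the other strand (Gapdh over Iffo1, Pfkp over Pitrm1, Hk2 over Gm17034), and the labels do not say whether counting used the strand. Aldoa, Gapdh, Pgk1, Pgam1 and Ldha each have 2 pseudogenes named by their symbol with the suffix ps in the annotation. None of these is in the matrices, so reads that match both copies are uncertain. Pseudogenes under other names were not counted. The matrices also hold a further row named after Aldoa and the row Ldhb-ps, which were not added to the members. A near-copy of Eno1, Eno1b, had at most 18 UMIs in a main class of Sham or TAC.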

How the data were processed

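UMI counts per gene and barcode, as the authors deposited them, were used for 3 libraries of pooled mouse ventricles. Cell Ranger, Seurat and the build mm10 are named in the submitters' processing notes, without versions. Barcodes needed at least 500 UMIs, 300 detected genes and no more than 10% mitochondrial UMIs, and the highest-scoring 0.8% per 1000 barcodes were removed as doublets (112, 440 and 376). A cell joined a class when its mean scaled marker score was at least 0.15 and led the next class by 0.1, with 3 or more markers detected. Counts were summed per class and library; log2 ratios had 0.5 added to each sum, with exact conditional binomial 95% intervals, and CPM had exact Poisson intervals. The code was tested on simulated data.

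Members, pathway lists and classes were chosen with earlier results of these data known. Every member is named, and of each pathway list up to the 2 highest and 2 lowest genes by ratio. The split at 1.5% mitochondrial UMIs was added after seeing the data. Alternatives were TMM factors (edgeR 4.0.16), DESeq2 1.42.0 size factors, equal weight per cell, a limit of 8000 UMIs, kept doublets, a stricter gate, classes from clusters (scanpy 1.11.5), members with 1 or more UMIs, and a total without mitochondrial genes and Malat1. Python 3.11.15, numpy 2.4.6, scipy 1.17.1 and R 4.3.3 were used. Promoter windows came from RefSeq tables of GRCm38.p6.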

Additional observations from a re-analysis of the deposited data

Results flagged for a closer look

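Hk2, hexokinase 2, had opposite directions in TAC over Sham between classes: its log2 ratio was 0.76 in fibroblasts, -1.07 in cardiomyocytes and -0.89 in macrophages, each with a counting interval clear of 0. The difference between the classes was not tested, since each group is 1 library.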

How the results depend on the processing

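In the 5 classes and both comparisons the members' median log2 ratios kept their direction under all 9 alternatives named above. They also stayed within the counting interval of the middle member, averaged over the middle pair where the count was even. The 1 exception was added after seeing the data. In cardiomyocytes the TAC over Sham median of the 26 members, 0.59, was 0.20 in mt-poor and 0.16 in mt-rich droplets. Eno3 and Pkm changed sign there in mt-poor droplets, to -0.31 and -0.19, with counting intervals that included 0. The ratios changed because each kind was counted alone. Counted over those same 26, whether or not they reached 100 UMIs within a kind (24 and 21 did, and only these are counted in the report), 13 members higher in TAC became 5 in mt-poor and 7 in mt-rich droplets, 3 lower became 5 in mt-rich ones, and 10 lower in TAC+ART became 5 in mt-poor droplets, 1 in mt-rich ones and 5 in cells of at most 8000 UMIs, and 2 higher became 1 in the latter. For macrophages 4 members lower in TAC+ART became 1 under TMM, DESeq2 size factors and clusters. For pericytes 1 lower in TAC became 2 (1 or more UMIs, stricter gate, clusters) or 0 (doublets kept), and 0 higher in TAC+ART became 3 with members of 1 or more UMIs. Of 107 member ratios past 1.5-fold, 0 changed sign under the 8 of these alternatives that apply to single members, and 30 fell under the fold in at least 1, most often with classes from clusters (11) or cells of at most 8000 UMIs (10). These include Pfkp in pericytes (0.59, 0.43 with equal weight per cell) and Slc16a1 in cardiomyocytes (0.69, 0.47 in cells of at most 8000 UMIs). No paired analysis was possible because each group is 1 library. Depth limits Slc2a1, Slc16a3, Aldoc and most ratios of mt-rich droplets, whose Sham sum is 307350 UMIs.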

Other observations

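Endocardial cells (165, 279 and 215 in Sham, TAC and TAC+ART) and lymphatic endothelial cells (73, 248 and 149) held fewer cells in each library than any of the 5 main classes. Gapdh stood at 108, 236 and 203 CPM in endocardial cells (TAC over Sham 1.13, 0.80 to 1.48) and at 104, 312 and 153 CPM in lymphatic ones (1.57, 1.10 to 2.12). The part of free cardiomyocyte RNA in these Gapdh ratios was not tested. Pfkp in endocardial cells had 7.18, 41.1 and 27.0 CPM from 6, 65 and 33 UMIs (2.41, 1.32 to 4.02). Pfkfb3 had 148, 119 and 93.1 CPM in endocardial cells, where the blood endothelial class had 80.2, 44.8 and 51.6 CPM.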
